A study of Mus musculus with 82 samples.

Results

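The 10 genes Cdh1, Epcam, Esrp1, Cdh2, Vim, Snai1, Snai2, Zeb1, Zeb2 and Twist1, which mark or control the epithelial to mesenchymal transition, were followed through the chromatin of mouse stembryos. They are 10 of 21911 protein-coding genes, were chosen by name with earlier results of these data known, and all 10 had called regions in at least 1 assay. For each gene the called regions were read in a window made of the gene body and 10 kb on either side, and at the promoter, within 1 kb of a transcription start, on the mm10 build. Every wt list of the 8 assays was read.

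Stembryos, also called gastruloids, are aggregates of mouse embryonic stem (mES) cells that receive a pulse of the Wnt agonist Chiron between 48 h and 72 h after aggregation and then elongate like a posterior body axis. The wt stembryos came from EmbryoMax 129/SVEV mES cells, which were kept before aggregation with LIF and inhibitors of GSK-3 and MEK, and were profiled from 48 h to 168 h. Each library pooled many stembryos, and at late stages the ones that had not elongated were left out by the study. The wt lists comprised 13 for H3K27ac, 6 for H3K27me3, 8 for total RNA polymerase II (PolII), 5 for PolII phosphorylated at serine 2 (pSer2PolII), 8 for NIPBL, 16 for RAD21, 2 for CTCF and 3 for CDX2. A further 8 H3K27ac lists at 96 h and 120 h came from Del(CBS1) and Del(CBS1-2) stembryos, which lack CTCF binding sites of the HoxD cluster on chromosome 2, were made by CRISPR-Cas9 and picked as clones of the wt cells, and received the same Chiron pulse. No gene of the 10 lies in HoxD. H3K27ac marks active promoters and enhancers, H3K27me3 is the mark of Polycomb repression, pSer2PolII is the elongating polymerase, NIPBL loads the cohesin ring, RAD21 is a cohesin subunit, CTCF stops cohesin at its binding sites, and CDX2 is a transcription factor of the posterior body.

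The lists held between 147 and 71196 regions. Depth was read from the lowest background that a list used, which ranged from 1.12 to 7.21 fragments. Several lists were short: NIPBL at 72 h and 84 h held 6652 and 4888 regions against 18588 to 40490 at later stages, and pSer2PolII at 84 h and 144 h held 3987 and 6674 against 16045 to 24177 at the other stages. The H3K27ac lists without a replicate number shortened from 67663 regions at 48 h to 24002 at 144 h. The labelled tissue was checked at promoters of marker genes in the 13 wt H3K27ac lists. Of the pluripotency genes Nanog and Zfp42 were called in the 48 h and 72 h lists alone and Pou5f1 up to 96 h, whereas Esrrb was called in 9 lists and Klf4 in 13. Among genes of the primitive streak and posterior axis, T was called in 13, Fgf8 in 11, Cdx2 in 10 and Wnt3a in 8. The neural genes Pax6 and Sox1 were called in 13 and 12. In paraxial mesoderm, Msgn1 was called in 11 and from 48 h, Tbx6 in 10 from 84 h and Meox1 in 6 from 108 h. The endoderm genes Sox17 and Foxa2 were called in 6 and 5. Of 3 extraembryonic genes, Elf5 and Gcm1 were called in 1 list each and Tpbpa in none. A sample is a pool of cells, so that fewer cells with a mark and less of the mark per cell cannot be told apart.

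In the epithelial to mesenchymal transition, cells give up their junctions and become motile, as epiblast cells do when they pass through the primitive streak to form mesoderm. Epithelial cells hold together through E-cadherin (Cdh1), carry the adhesion molecule Epcam and splice their transcripts with Esrp1. Mesenchymal cells express N-cadherin (Cdh2) and the intermediate filament vimentin (Vim). Snai1, Snai2, Zeb1, Zeb2 and Twist1 encode transcription factors of the transition, among which the Snail and Zeb proteins bind E-box sequences and are known for repressing Cdh1.

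Sequences of 5 of the 10 promoters were at hand from RefSeq on GRCm38.p6, each from 250 bases before to 50 bases after a start. The promoters of Cdh1, Cdh2, Esrp1, Snai2 and Zeb1 are named only. The E-box CAGGTG, which reads CACCTG on the other strand, was searched on both strands because it is the core that Snail and Zeb proteins bind. Of 32851 promoters of the same length, 20.2% held at least 1 such E-box and 2.88% held at least 2. Epcam held 2, with first bases at -187 and -19 from the start, Snai1 held 1 at -126, and the Zeb2, Twist1 and Vim promoters held none. Promoters are shown here 5' to 3' along the gene, with the E-boxes in capitals. The first 2 are of a gene with promoter H3K27ac in the lists of 96 h but not of 120 h (Epcam) and of 1 that carried PolII throughout (Snai1). The others are of both whose promoters had H3K27ac in the lists of 120 h but not of 48 h (Vim and Twist1).
Epcam, chr17:87635729-87636028, plus strand: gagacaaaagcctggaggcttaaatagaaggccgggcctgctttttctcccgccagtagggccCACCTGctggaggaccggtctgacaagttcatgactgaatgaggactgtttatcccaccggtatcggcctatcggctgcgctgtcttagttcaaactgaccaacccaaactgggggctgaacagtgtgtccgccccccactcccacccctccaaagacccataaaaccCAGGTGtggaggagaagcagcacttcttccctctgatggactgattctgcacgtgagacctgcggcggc
Snai1, chr2:167537945-167538244, plus strand: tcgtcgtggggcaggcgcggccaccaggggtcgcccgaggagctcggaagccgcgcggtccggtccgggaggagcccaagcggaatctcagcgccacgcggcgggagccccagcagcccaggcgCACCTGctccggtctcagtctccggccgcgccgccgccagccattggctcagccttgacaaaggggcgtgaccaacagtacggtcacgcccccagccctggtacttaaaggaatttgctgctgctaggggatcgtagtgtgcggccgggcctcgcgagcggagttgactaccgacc
Vim, chr2:13574061-13574360, plus strand: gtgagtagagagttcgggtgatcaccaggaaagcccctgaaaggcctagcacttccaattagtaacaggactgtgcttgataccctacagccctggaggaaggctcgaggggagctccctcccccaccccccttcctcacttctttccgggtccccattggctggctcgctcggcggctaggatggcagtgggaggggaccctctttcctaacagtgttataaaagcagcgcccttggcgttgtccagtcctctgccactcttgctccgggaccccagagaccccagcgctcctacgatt
Twist1, chr12:33957421-33957720, plus strand: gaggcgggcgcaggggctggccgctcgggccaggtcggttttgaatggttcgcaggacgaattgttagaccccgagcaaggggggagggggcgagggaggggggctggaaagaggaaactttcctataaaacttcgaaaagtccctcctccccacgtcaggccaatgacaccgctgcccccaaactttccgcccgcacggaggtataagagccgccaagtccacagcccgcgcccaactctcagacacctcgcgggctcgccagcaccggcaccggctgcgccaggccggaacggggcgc
The first E-box of Epcam shares its letters with a match of the CTCF core described with the CTCF regions. A match of letters describes the sequence and does not show that a protein is bound.

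Cdh1, Epcam and Esrp1 carried H3K27ac at 48 h and lost most or all of it from their promoters at later stages. Values are given as the covered percent, the share of the window under called regions, and as the relative pileup, the number of fragments over the strongest promoter summit divided by the lowest background of that list. The relative pileup takes account of depth but not of how well each immunoprecipitation worked, and was compared between lists as a description only. Called regions covered 10.9%, 7.83% and 4.89% of the Cdh1 window in the lists of 48, 72 and 84 h. At 96 h it covered 3.60% in the library without a number and 1.81% and 1.47% in replicates 1 and 2. The window was covered by 3.31% at 108 h and by 3.76%, 2.42% and 2.08% in the 3 libraries of 120 h, and the values of 132, 144 and 168 h were 2.59%, 1.25% and 1.53%. The first 3 stages were thus above every later list. The relative pileup at the Cdh1 promoter was 43.7, 56.7 and 24.9 at 48, 72 and 84 h, between 7.74 and 16.02 at 96 h, 8.39 at 108 h, and 7.92 in 1 of the 3 lists of 120 h with no promoter region in the other 2. It was 4.60 at 132 h and 5.83 at 144 h, and no region was called at 168 h.

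Epcam showed the sharpest break of the 3 epithelial genes. Its window was covered by 6.28%, 4.76% and 3.12% in the lists of 48, 72 and 84 h. The 3 libraries of 96 h gave 2.95%, 1.91% and 2.39%, and the single one of 108 h gave 1.078%. No region of the whole Epcam window was called in any of the 3 lists of 120 h, and a small region at the promoter was called again at 132, 144 and 168 h (0.899%, 1.37% and 1.51%). The relative pileup at its promoter was 35.4, 42.5 and 30.5 at the first 3 stages, 6.68 to 10.1 at 96 h, 3.79 at 108 h and 5.37 to 5.88 from 132 h to 168 h. For Esrp1 the covered percent was 8.29%, 4.78% and 4.24% in the first 3 stages and 1.89% to 3.84% in the libraries of 96 h. From 108 h on it was 0.635% to 1.49%. At 45 kb from the nearest Esrp1 start, in the window but at the promoter of the neighbouring gene Dpy19l4, a region (chr4:11321279-11322992) was called in 13 of 13 lists, so that the Esrp1 promoter itself gives the clearer reading. Its relative pileup was 18.4, 22.9 and 18.95 at 48, 72 and 84 h and 6.15 to 11.4 at 96 h, and of the 7 later lists only that of 144 h had a promoter region, with 4.99.

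Cdh2 and Vim carried more H3K27ac at later stages than at 48 h. Vim had no promoter region at 48 h, when 1.65% of its window was covered by a region 5.58 kb upstream of the nearest start (chr2:13568106-13568583), which was singled out after its values were seen. From 72 h on its promoter region (chr2:13572685-13575026) was called in all 12 lists, and the window was covered by 3.69% to 7.89%. The relative pileup at the Vim promoter was 8.37 in the list of 72 h, 11.8 to 13.0 in those of 84 h and 96 h, 12.2 to 18.6 in those from 108 h to 144 h, and 42.9 in that of 168 h. The last value stood above all others. The Cdh2 promoter was called in 13 of 13 lists and its relative pileup was 5.35 in the list of 48 h, 16.1 to 32.2 in those from 72 h to 144 h, and 58.8 in that of 168 h. The covered percent of the long Cdh2 window was 0.49%, 1.12% and 1.11% in the lists of 48, 72 and 84 h, 2.38% to 3.41% in the 3 libraries of 96 h, and 1.05% to 2.54% from 108 h on. Besides the promoter, an intronic Cdh2 region 68.8 kb inside the gene from the nearest start (chr18:16739740-16741123) was called in 10 of 13 lists, first at 72 h.

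**Figure D1:**
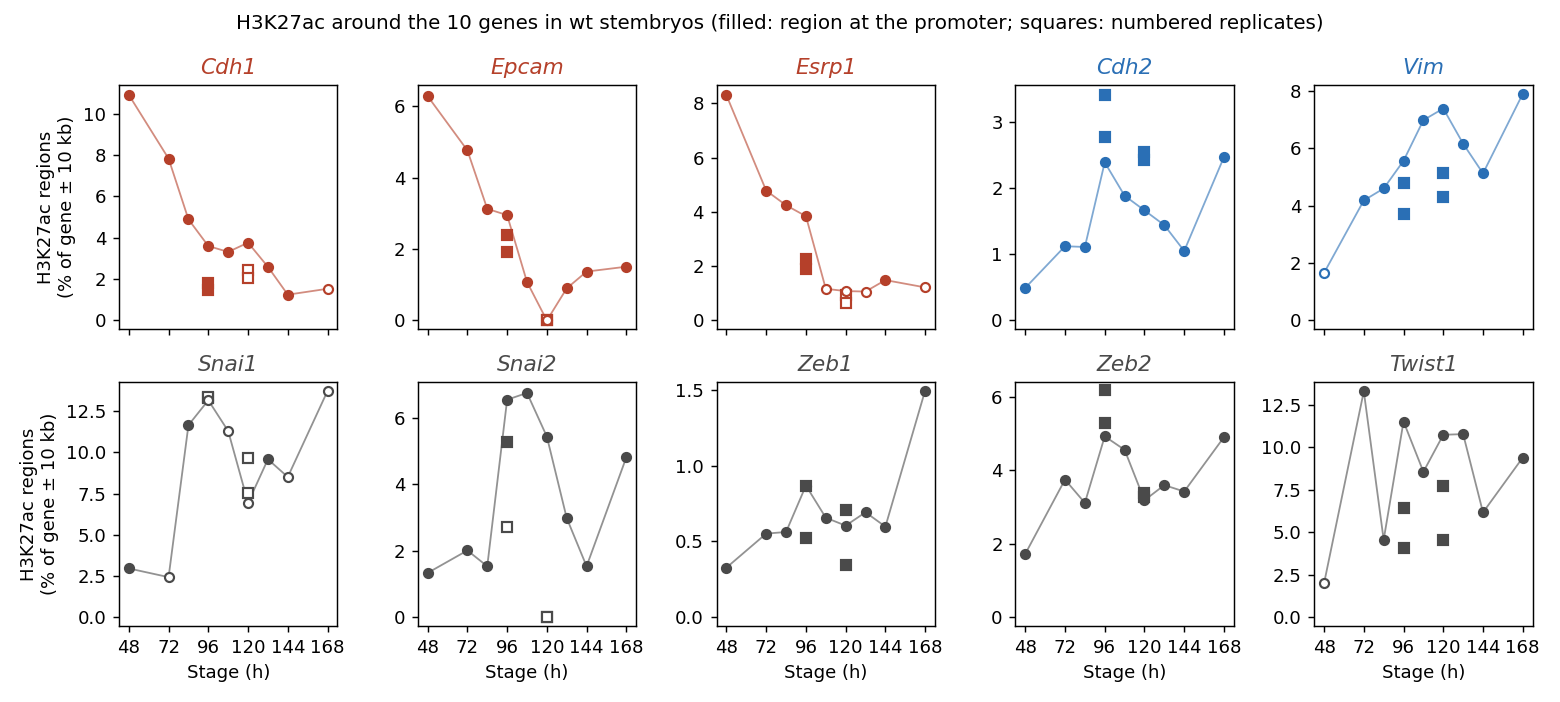
Percent of each gene's window (gene body and 10 kb on either side, y axis) under called H3K27ac regions against stage in hours after aggregation (x axis) in the 13 wt lists; lines join the 9 libraries without a number, squares are replicates 1 and 2, and filled symbols have a region within 1 kb of a start. Cdh1, Epcam and Esrp1 (red) are highest at 48 h, Cdh2 and Vim (blue) lowest at 48 h, and the 5 transcription factor genes (grey) have no common course; each y axis has its own range.

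The transcription factor genes did not share a course. Zeb1 and Zeb2 had promoter H3K27ac in 13 of 13 lists, with a relative pileup of 3.95 at 48 h and 6.39 to 19.7 later for Zeb1, and of 8.61 at 48 h and 20.0 to 39.5 later for Zeb2. For both genes the 48 h list was the lowest. Twist1 had no promoter region at 48 h and one in all 12 later lists, where the relative pileup was 3.74 to 14.9. Its window was already occupied at 48 h by a region 9.50 kb downstream of the start (chr12:33966537-33967801), which was called in 13 of 13 lists. Snai2 had a promoter region in 10 of 13 lists at a relative pileup of 3.49 to 7.05, and the 3 lists without one were replicate 1 of 96 h and replicates 1 and 2 of 120 h. The Snai2 window held no region at all in those 2 replicates of 120 h, whereas the third library of 120 h covered 5.43%.

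Snai1 stood apart, because its acetylation lay mostly outside the promoter. A promoter region was called in 3 of 13 lists, at 48, 84 and 132 h, with a relative pileup of 6.75, 15.1 and 8.95. In contrast, a region that overlapped the last exon and ran past the end of the gene (chr2:167542728-167544977, its middle 5.66 kb from the start) was called in 12 of 13 lists, all except 48 h. A second one 8.09 kb upstream (chr2:167529415-167530796) was called in 7 of 13 lists, at 72, 84, 96, 120 and 168 h. The Snai1 window was covered by 2.96% and 2.43% in the lists of 48 h and 72 h, by 11.7% in that of 84 h and by 13.2% to 13.4% in the 3 of 96 h. The list of 108 h gave 11.3% and the 3 of 120 h gave 6.94% to 9.64%, and the last 3 stages gave 9.58%, 8.50% and 13.7%. The step from 72 h to 84 h was the largest between neighbouring stages.

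Counted over promoters, Cdh2, Snai2, Zeb1 and Zeb2 had H3K27ac at all 9 stages of the unnumbered libraries, as had 47.5% of all genes. Epcam, Esrp1 and Snai1 had it at 48 h and in none of the 3 wt lists of 120 h, against 8.69% of all genes. Twist1 and Vim had none at 48 h and a promoter region in all 3 lists of 120 h, against 1.2% of all genes. Cdh1 was in none of these classes, since 1 library of 120 h still had its promoter region. The classes depended on how many regions a list was allowed: with lists cut to equal length only Zeb2 had H3K27ac at all 9 stages, Snai1 left the second class, and Cdh2, Zeb1 and Vim made the third.

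The trend of the covered percent with stage was tested over the 9 unnumbered H3K27ac libraries, 1 a stage, by an exact two-sided permutation test of Spearman's rho with Benjamini-Hochberg adjustment over the 16624 genes tested. Cdh1 was the only gene of the 10 that passed, with rho of -0.93 (adjusted p = 0.032, exact permutation test) and Pearson's r of -0.91 (adjusted p = 0.0204). Among all genes 6.26% were called lower at later stages and 0.162% higher, and the median rho of all genes was -0.48, so that Cdh1 fell in an assay where lists shortened with stage. Without 48 h and 168 h, the 2 stages farthest from the median stage, Cdh1 kept rho of -0.89 and r of -0.90. With lists cut to equal length rho was -0.95 (adjusted p = 0.059), and with a −log10 q of at least 5 it was -0.93 (adjusted p = 0.0597), as large as before although not past the threshold. Leaving out 1 stage gave rho of -0.98 to -0.90, and for 7 of the 9 stages the call was lost (adjusted p up to 0.125). With the promoter alone rho was -0.80 (adjusted p = 0.142).

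Epcam had rho of -0.72 and Esrp1 of -0.75, neither past the threshold (adjusted p = 0.128 and 0.105), although both passed by Pearson's r (adjusted p = 0.0474 and 0.0286, exact permutation test). By Pearson's r 2385 of 16624 genes were called lower and 83 higher. Without 48 h and 168 h Epcam and Esrp1 kept r of -0.82 and -0.87. The largest positive values belonged to Vim (rho 0.78, adjusted p = 0.0878) and Zeb1 (rho 0.72, adjusted p = 0.128), and Cdh2, Snai1, Snai2, Zeb2 and Twist1 had rho between 0.10 and 0.47. Without 48 h and 168 h, Vim had rho of 0.54 and r of 0.50, and Zeb1 had rho of 0.39 and r of 0.09. The positive values of both genes thus rested in part on those stages. All 3 epithelial genes thus lay below the median of all genes, and the 7 other genes above it.

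**Figure D2:**
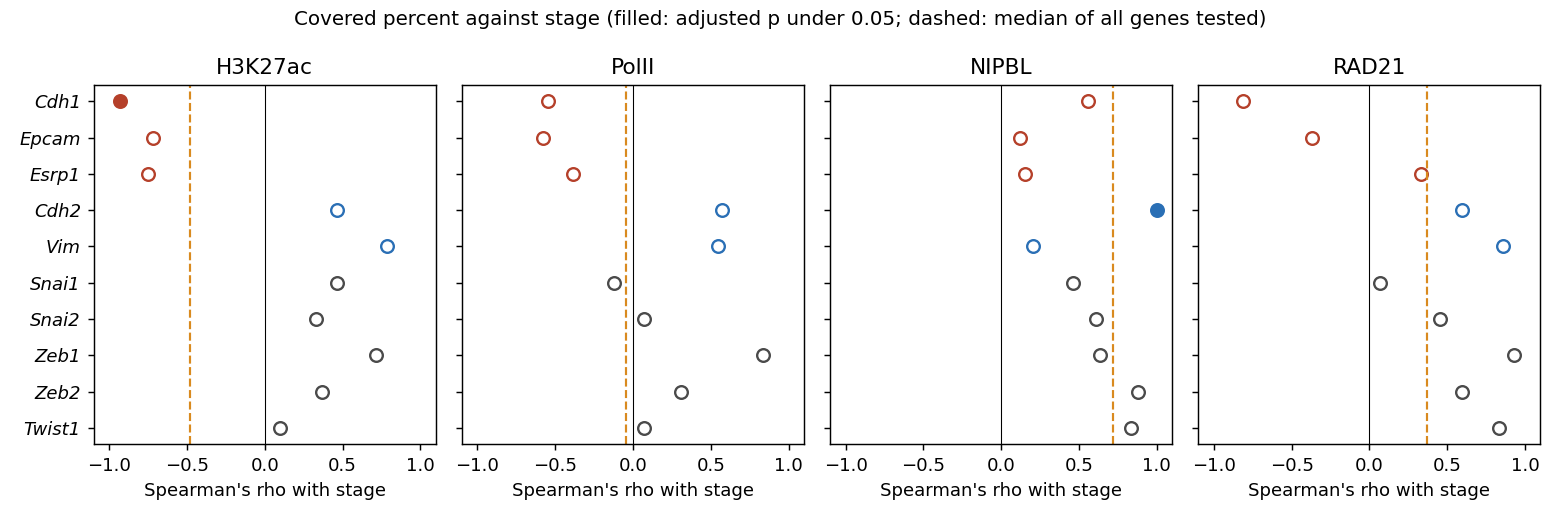
Spearman's rho between covered percent and stage (x axis, from -1 to 1) for the 10 genes (y axis) in the 4 assays with 8 or 9 stages; filled points passed an adjusted p of 0.05 and the dashed line is the median rho of all genes tested in that assay. Only Cdh1 in H3K27ac and Cdh2 in NIPBL are filled, and the 3 epithelial genes lie left of the H3K27ac median of -0.48.

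Between 96 h and 120 h, H3K27ac of Epcam, Esrp1 and Snai1 fell in wt and both deletion lines. These 2 stages had 7 libraries each: 3 wt, 2 Del(CBS1) and 2 Del(CBS1-2). Differences of the mean covered percent were tested by an exact two-sided permutation test over all 3432 ways to assign the 14 libraries to the 2 stages, adjusted over 16677 genes, of which 21% were called lower and 6.25% higher at 120 h. The test shares the unnumbered wt libraries of both stages with the trend. The methods of the study describe the numbered replicates as biological duplicates, each of pooled stembryos and only some of them from separate cultures, and the time courses as single replicates, so that the p-values may in part measure technical spread. The Del(CBS1-2) libraries carry a cell line tag in the labels and those of wt and Del(CBS1) a cell type tag, and genotype and tag cannot be told apart for Del(CBS1-2).

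Epcam covered 1.91% to 2.95% of its window (median 2.75%) at 96 h and 0% in all 7 libraries of 120 h. The mean went from 2.55% ± 0.433 (SD, n = 7) to 0%, with an adjusted p of 0.00651 by the exact permutation test, and the promoter was called in 7 of 7 libraries and then in 0 of 7. Esrp1 covered 1.89% to 3.84% (median 2.26%) at 96 h and 0.635% to 1.31% (median 1.08%) at 120 h, again with no overlap between the groups (2.53% ± 0.652 against 1.04% ± 0.213, SD, n = 7, adjusted p = 0.00651, exact permutation test). Groups without overlap give the smallest p that this test can reach (0.000583, exact permutation test), so that they add nothing to the calls. How many of all genes had groups without overlap was not counted. The promoter of Esrp1 likewise went from 7 of 7 to 0 of 7 libraries, and the remainder was the Dpy19l4 promoter. Snai1 covered 11.5% to 13.4% (median 13.0%) at 96 h and 6.94% to 10.8% (median 9.11%) at 120 h (12.7% ± 0.682 against 8.94% ± 1.41, SD, n = 7, adjusted p = 0.00651, exact permutation test). Its promoter was called in none of the 14 libraries, and the difference came with the region 8.09 kb upstream, which was called in 7 of 7 libraries at 96 h and 2 of 7 at 120 h. Within wt, Del(CBS1) and Del(CBS1-2) alone, the difference was -2.41, -2.46 and -2.83 points for Epcam, -1.78, -1.09 and -1.48 for Esrp1 and -5.24, -3.42 and -1.95 for Snai1. With lists of equal length Epcam was still called, while Esrp1 and Snai1 were not (-0.421 points, adjusted p = 0.594 and -2.27 points, adjusted p = 0.185, exact permutation test), and with 5 kb flanks, which leave out the upstream region, Snai1 was not called either (-1.19 points, adjusted p = 0.274, exact permutation test). With a −log10 q of at least 5, Esrp1 (-0.867 points, adjusted p = 0.138) and Snai1 (-3.002 points, adjusted p = 0.0631, exact permutation test) were not called. Without wt, without Del(CBS1), in wt alone and with the replicate block no gene of the genome was called, and the differences were -2.41 to -2.65 points for Epcam, -1.28 to -1.78 for Esrp1 and -2.69 to -5.24 for Snai1 (adjusted p of 0.0608 to 0.278, exact permutation test).

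The other 7 genes did not pass. Vim covered 3.42% to 5.56% (median 4.28%) at 96 h and 4.30% to 7.38% (median 5.17%) at 120 h, a difference of 1.41 points (adjusted p = 0.0609, exact permutation test) in overlapping groups, which passed without the unnumbered wt library of 96 h (adjusted p = 0.0365, exact permutation test) or without wt replicate 2 of 120 h (adjusted p = 0.0362, exact permutation test). Snai2 differed by -2.72 points with the same adjusted p, and it passed without the unnumbered wt library of 120 h (-3.37 points, adjusted p = 0.0191, exact permutation test) or without Del(CBS1-2) replicate 1 of 96 h (adjusted p = 0.0476, exact permutation test). Cdh1 differed by 1.18 points in the other direction from its trend (1.47% to 3.60%, median 2.71%, against 2.08% to 4.68%, median 3.81%, adjusted p = 0.0994, exact permutation test), and it passed without wt replicate 2 of 120 h (adjusted p = 0.0452, exact permutation test). Zeb2 (-1.27 points), Twist1 (1.70), Zeb1 (0.13) and Cdh2 (0.02) had adjusted p-values of 0.147 to 0.975. Cdh2 was lower at 120 h in wt (-0.65 points) and higher in Del(CBS1) and Del(CBS1-2) (0.11 and 0.92 points), and its sign also turned with lists of equal length (-0.15 points).

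**Figure D3:**
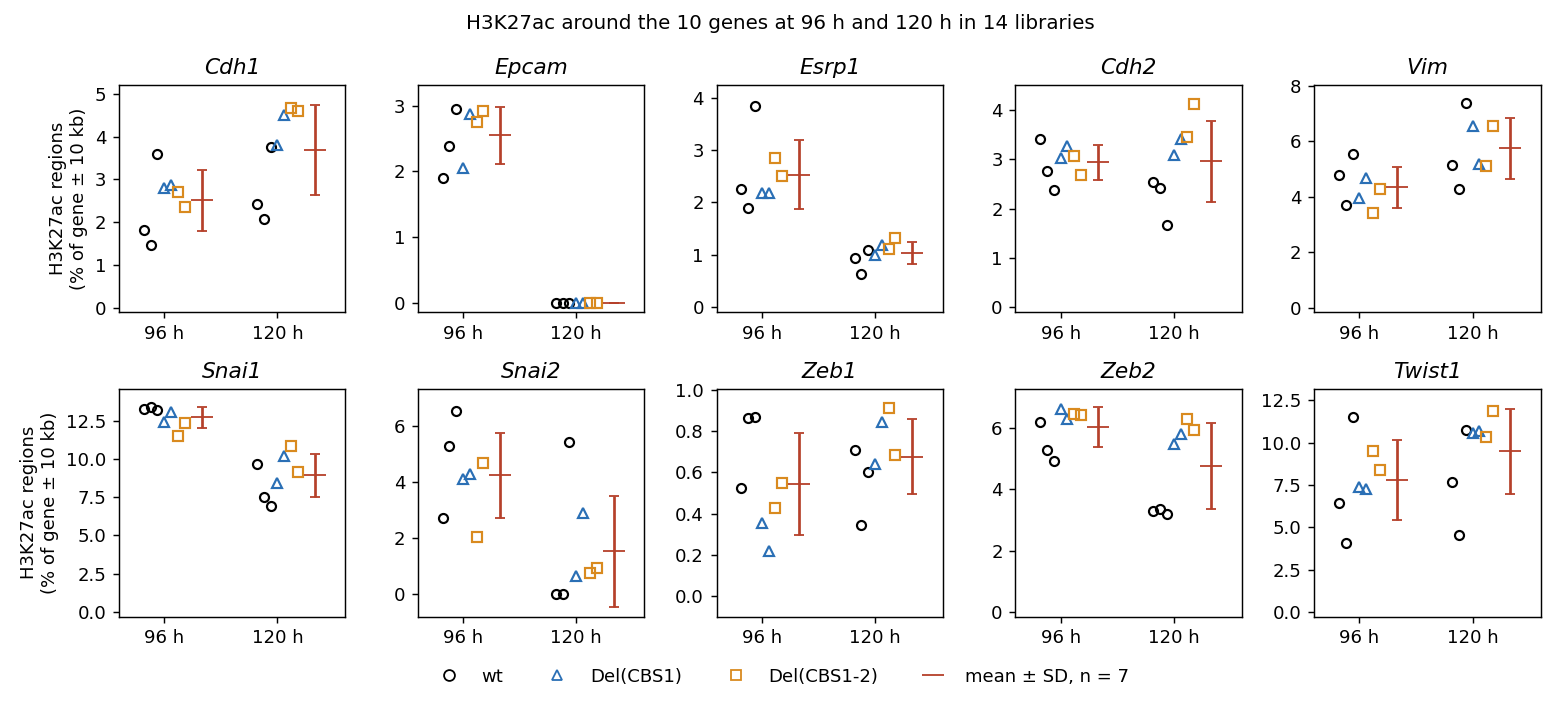
Percent of each gene's window under H3K27ac regions (y axis) at 96 h and 120 h (x axis) in 14 libraries of wt (circles), Del(CBS1) (triangles) and Del(CBS1-2) (squares); red bars are the mean and SD of the 7 libraries of a stage. The groups do not overlap for Epcam, Esrp1 and Snai1, and Epcam lies at 0 in all 7 libraries of 120 h. Of all genes tested 21% were called lower at 120 h, and how many had groups without overlap was not counted.

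Along Cdh1, different regions were called at 96 h and at 120 h, which the covered percent alone did not show. The promoter (chr8:106603306-106604782) was called in 7 of 7 libraries at 96 h and 4 of 7 at 120 h. An intronic region 7.14 kb from the start (chr8:106610098-106610931) was called in 6 of 7 and then in 0 of 7, and another at 16.1 kb (chr8:106618613-106620388) in 7 of 7 and then in 6 of 7. In contrast, an intronic region at 33.7 kb (chr8:106636304-106637866) was called in 0 of 7 libraries at 96 h and 7 of 7 at 120 h. A region downstream of the gene, 70.1 kb from the start (chr8:106673024-106673857), went from 1 of 7 to 7 of 7. In the wt lists, the 33.7 kb region was seen at 108, 120, 132 and 168 h, the downstream one at 108, 120, 132 and 144 h (separate regions 71.2 to 72.6 kb from the start were called at 48 h and 72 h), and the 7.14 kb one at 48, 72, 84 and 96 h. NIPBL regions overlapped both of these later places, in the intron at 132 h and 144 h and at the near edge of the downstream region from 120 h to 168 h. These regions were singled out after their values were seen, so no test is given for them. With lists of equal length, Cdh1 as a whole was called higher at 120 h (1.14 points, adjusted p = 0.0423, exact permutation test), whereas the promoter alone gave -18.3 points of the promoter window (adjusted p = 0.0568, exact permutation test).

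**Figure D4:**
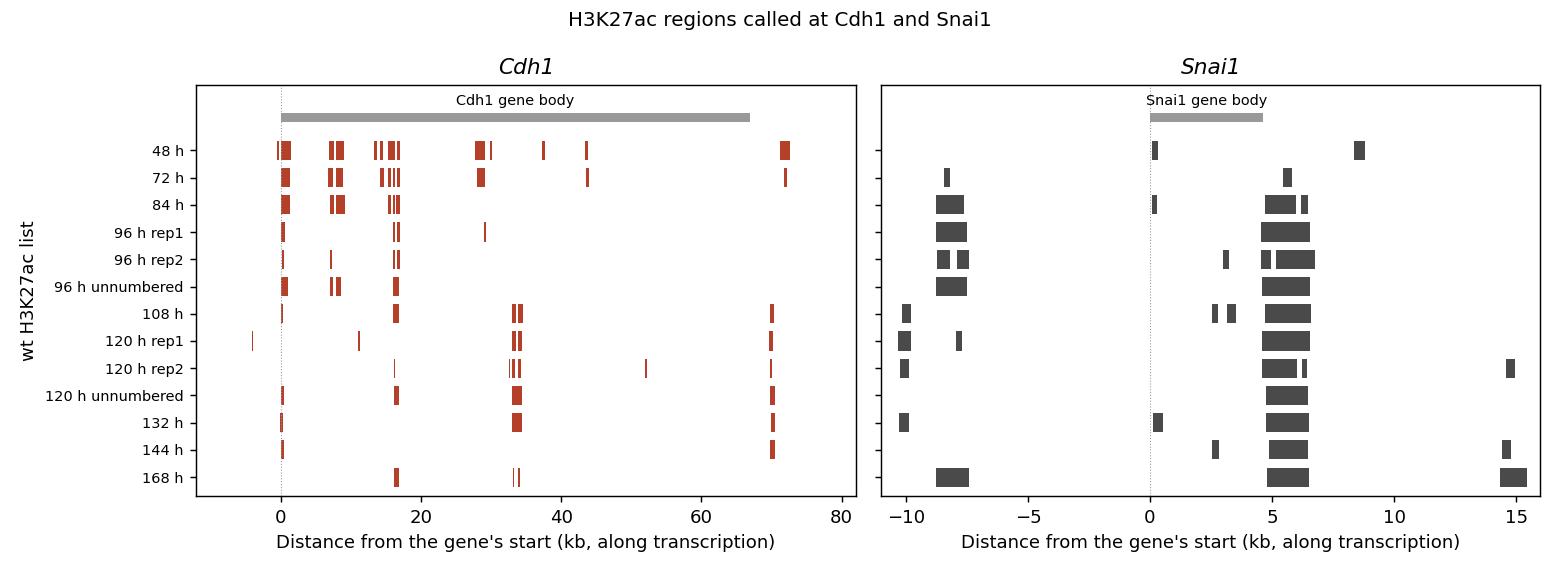
Called H3K27ac regions (bars) in the 13 wt lists (rows, by stage) along Cdh1 and Snai1, against the distance from the start of the gene in kb along transcription; the grey bar is the gene body. At Cdh1 the regions near 7 kb are seen up to 96 h and those near 34 kb from 108 h, as are those at 70 kb, beyond which other regions lie at 48 h and 72 h, and at Snai1 the region past the end of the gene is called in 12 of 13 lists.

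H3K27me3 was found at the promoters of Cdh1, Epcam, Esrp1 and Twist1 from 96 h and not at 72 h. These 4 promoters had no region at 72 h and a region in all 5 later lists (3 at 96 h, 1 at 120 h, 1 at 144 h), a pattern shown by 2.85% of all genes. At Cdh1 the relative pileup was 10.6 to 14.1 in the 3 libraries of 96 h, 43.4 at 120 h and 28.6 at 144 h. At Epcam it was 21.1 to 28.0, 65.1 and 36.6, and at Esrp1 34.4 to 38.9, 81.2 and 41.0 at the same stages. The 3 epithelial genes thus shared their order of stages, with the highest value at 120 h, which was 1 library without a replicate. For Esrp1 the reading at 72 h depended on the window: within 2.5 kb of a start it had a region in all 6 lists. For Cdh1 it depended on the strength, and only Epcam, Esrp1 and Twist1 met the rule when regions needed a −log10 q of at least 5. Twist1 values lay between 17.0 and 21.8 in all 5 later lists, and a region 11.5 kb downstream (chr12:33968044-33970228) was called in 6 of 6 lists.

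Snai2 and Zeb1 carried H3K27me3 at the promoter in all 6 lists, as did 11.3% of all genes. At the 5'-most start alone only Snai2 met this rule, and with a −log10 q of at least 5 only Zeb1. The relative pileup of both genes was highest at 72 h, with 18.4 for Snai2 against 9.31 to 14.3 later and 23.0 for Zeb1 against 10.9 to 15.5 later. Both promoters were also called for H3K27ac in at least 1 list of each of these stages, as was that of Twist1 from 96 h on. Whether both marks lay in the same cells was not tested. Vim had a region in the 5 lists up to 120 h (7.94 to 10.9) and none at 144 h, and Zeb2 had a promoter region at 72 h only (10.33). Cdh2 had no promoter region in any of the 6 lists, and Snai1 had no H3K27me3 region in its whole window in any of them.

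Total PolII was present at the promoters of all 10 genes at 72 h and 84 h, when 56.4% and 51.8% of all genes had a promoter region. It was called at all 8 stages for Cdh2, Vim, Snai1, Snai2, Zeb1, Zeb2 and Twist1, as for 45.2% of all genes. Cdh1, Epcam and Esrp1 had it at 72 h and 84 h and not at all 6 later stages, against 6.25% of all genes. At Cdh1 the relative pileup was 79.5 at 72 h and 29.9 at 84 h, and the only later region was at 144 h with 7.07. At Epcam, which had the highest value of the 10 genes at 72 h, it was 107, 36.4 and 14.3 in the first 3 lists. Later Epcam regions were weaker, with 6.71, 9.09 and 4.53 in the lists of 120, 144 and 168 h, and those of 108 h and 132 h had none. At Esrp1 it was 36.7 and 18.2, and no promoter region was called from 96 h on.

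Among the genes with PolII throughout, Snai1 had the highest promoter value at each stage from 72 h to 120 h. Its relative pileup was 55.7, 49.5, 87.4, 57.9, 93.3, 25.0, 44.8 and 21.3 from 72 h to 168 h, and a second PolII region past the end of the gene was called at 7 of 8 stages, within the acetylated region described above. Twist1 had 9.72 to 11.2 from 72 h to 96 h, 20.6 at 108 h and 24.9 to 50.3 later. Its 3 earliest values lay below the 5 later ones. Vim had 18.7 to 32.1 up to 108 h and 27.3 to 62.1 from 120 h on, and Cdh2 19.9 to 33.9 and 29.2 to 50.3 over the same stages. In the test of trend no gene passed for PolII, the call rate being 0% of 13633 genes in either direction by rho and by Pearson's r (479 and 578 genes with an unadjusted p under 0.05, exact permutation test). Zeb1 had the largest rho of the 10 genes, 0.83 (adjusted p = 1), and Epcam and Cdh1 the lowest, -0.57 and -0.55.

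Elongating polymerase was likewise called at the promoters of the 3 epithelial genes early and not late. pSer2PolII was called at the promoters of Cdh1, Epcam and Esrp1 at 72 h, with a relative pileup of 25.4, 16.02 and 9.61, and in no later list, against 2.31% of all genes. The same 3 genes met this rule without the 84 h and 144 h lists, an alternative added after the data were seen because those lists were short. The signal at the gene end differed: downstream of Cdh1 a region (chr8:106670713-106672428) was called at 72, 84 and 96 h. Anywhere in the window, pSer2PolII was called in 3 of 5 lists for Cdh1, 2 of 5 for Epcam and 4 of 5 for Esrp1. The Esrp1 window also holds the Dpy19l4 promoter. Snai1 was the only gene of the 10 with a promoter region in all 5 lists, at 15.6, 12.9, 61.7, 10.8 and 4.99 from 72 h to 144 h. Vim and Cdh2 were called at 72, 96, 120 and 144 h, and a Vim region past the end of the gene (chr2:13583130-13584352) was called in 5 of 5 lists. Twist1 was called at 96 h (9.53) and 120 h (8.56) only, Snai2 at 120 h only (4.17), Zeb1 at 72 h and 120 h, and Zeb2 at 72, 96 and 120 h.

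**Figure D5:**
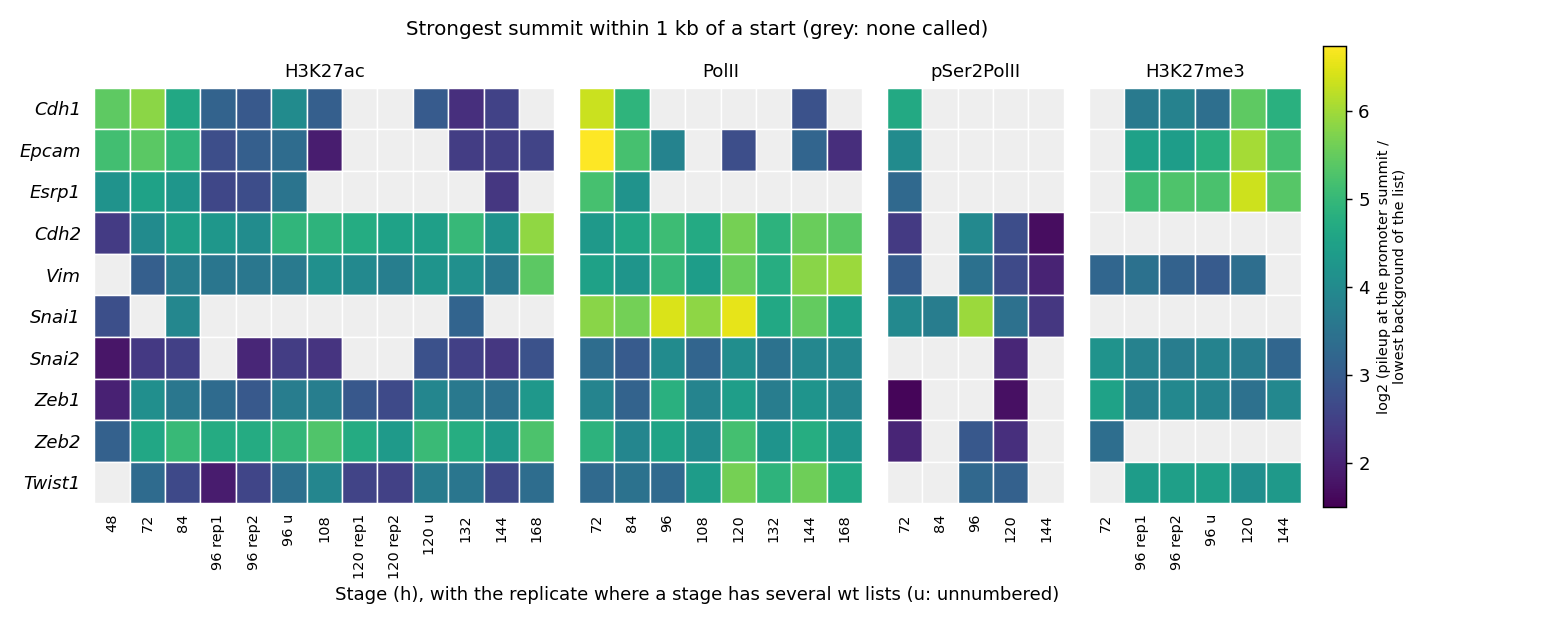
Height of the strongest summit within 1 kb of a start, as log2 of the fragments over the summit divided by the lowest background of the list (colour), for the 10 genes (rows) in each wt list of H3K27ac, PolII, pSer2PolII and H3K27me3 (columns, by stage in hours); grey marks a promoter with no called region. In the Cdh1, Epcam and Esrp1 rows, H3K27ac and PolII are high up to 84 h and low or absent later, and H3K27me3 is absent at 72 h and present from 96 h.

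NIPBL, the cohesin loader, increased along Cdh2 in every step of the series. From 72 h to 168 h the covered percent of Cdh2 was 0%, 0.244%, 0.774%, 0.857%, 1.28%, 1.51%, 2.98% and 3.002%. This gave rho of 1 (adjusted p = 0.0367, exact permutation test over 14833 genes) and r of 0.96 (adjusted p = 0.0268), and both were kept without 72 h and 168 h (rho 1, r 0.92). Of all genes 6.22% were called higher and 0% lower at later stages, the median rho of all genes was 0.72, and the promoter share of all genes moved with the short early lists, from 18.6% and 13.1% at 72 h and 84 h to between 36.3% and 53.6% later. With lists of equal length rho of Cdh2 was 0.34 (adjusted p = 0.581), and without the 72 h and 84 h lists rho was still 1 but no gene passed (adjusted p = 0.499, exact permutation test), an alternative added after the data were seen. Leaving out any 1 stage kept rho at 1, and for each stage other than 96 h it ended the call (adjusted p up to 0.133, exact permutation test). Without 96 h alone Cdh1, Snai2, Zeb2 and Twist1 passed too (adjusted p of 0.0206 to 0.0498, exact permutation test). In that setting 9477 of 13859 genes were called higher. No gene of the 10 had a promoter region at all 8 stages, against 8.17% of all genes.

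Zeb2 (rho 0.88, adjusted p = 0.0628) and Twist1 (rho 0.83, adjusted p = 0.069) came next and did not pass, although Zeb2 did by Pearson's r (adjusted p = 0.0382, exact permutation test). By Pearson's r 3383 of 14833 genes were called higher and 2 lower. The Zeb2 promoter was called at 7 of 8 stages with a relative pileup of 8.00 to 17.9, all except 84 h. The Zeb1 promoter was called from 108 h on, at 5.26 to 12.7, and at none of the 3 earlier stages. The Cdh1 and Esrp1 promoters were called at 96 h only, at 6.74 and 7.02. Epcam differed from both: its promoter was called at 7 of 8 stages, with 8.53 at 72 h, 12.6 at 96 h and 3.29 to 4.49 later. At 120 h alone NIPBL was called there while no wt list of that stage had H3K27ac. Snai1 had a promoter region at 96, 108, 144 and 168 h, Snai2 at 5 stages from 96 h on, and Vim at all stages except 120 h and 132 h.

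RAD21 marked a few of its places in nearly every list, and those were CTCF regions too. RAD21 was found at 83 places in the windows of the 10 genes. Of these, 9 were called in at least 15 of the 16 lists, 12 in 8 to 14 and 62 in at most 7. All 9 overlapped a CTCF region in both CTCF lists, at 72 h and 168 h, as did 6 of the 12 and 5 of the 62. The share over all RAD21 regions of the genome was not counted. The Snai1 promoter (chr2:167537416-167538366) and a region 5.86 kb upstream of Snai1 (chr2:167531912-167532768) were called in 16 of 16 lists. The relative pileup at the Snai1 promoter was 9.57 to 92.8, above that of the 9 other promoters in 15 of the 16 lists. Regions called in 16 of 16 lists also lay in a Cdh1 intron at 44.0 kb (chr8:106646853-106647867), downstream of Cdh2 (chr18:16581942-16582836), downstream of Esrp1 (chr4:11328577-11329329), 4.35 kb upstream of Snai2 (chr16:14700961-14702037) and 4.64 kb upstream of Twist1 (chr12:33952592-33953469). A Vim region 1.54 kb from the start (chr2:13575179-13576454) was called in 15 of 16. Zeb2 had promoter RAD21 in 16 of 16 lists as well, and with Snai1 it made 2 genes of the 10, against 7.84% of all genes. At the 5'-most start alone, and with lists of equal length, Snai1 was the only one.

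No gene passed the test of trend for RAD21, the share being 0% of 17846 genes in either direction by rho and by Pearson's r (2056 and 1812 genes with an unadjusted p under 0.05, exact permutation test over the means of 8 stages). Zeb1 (rho 0.93, adjusted p = 0.25), Vim (0.86), Twist1 (0.83) and Cdh1 (-0.81) had the largest values. Within the libraries that the labels tag as cell type and as cell line, rho was 0.99 and 0.68 for Zeb1, 0.82 and 0.93 for Vim and -0.64 and -0.46 for Cdh1. Without 168 h, which 1 library represented, 4850 genes and Cdh2, Snai2, Zeb1 and Vim among the 10 passed (adjusted p = 0.0364 to 0.0453, exact permutation test). At the Cdh2 promoter a region was called in 11 of 16 lists, at 4.89 to 10.96, and in none of 48 h and 72 h.

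CTCF was called at the promoters of Cdh2, Snai1, Snai2 and Zeb2 in both lists, as at those of 24% of all genes. Zeb2 dropped out at the 5'-most start alone, Cdh2 with a −log10 q of at least 5, and both with lists of equal length. Within 2.5 kb of a start Esrp1 and Vim joined them. The relative pileup was 37.8 at 72 h and 57.4 at 168 h for Snai1, 25.1 and 44.1 for Snai2, 10.32 and 16.7 for Zeb2, and 5.41 and 6.15 for Cdh2. Cdh1 (10.32) and Epcam (3.93) had a promoter region at 72 h and none at 168 h, and Esrp1 and Vim had one at 168 h and none at 72 h, which reached the promoter by its edge with the summit outside it. Zeb1 and Twist1 had none in either. The core of the CTCF motif, taken as CC and AGG with any 3 bases between them, then any base and G, was searched on both strands in the 201 bases centred on each summit. It was found at 33.5% of summits at 72 h and 32.3% at 168 h. The Snai1 promoter summit held 2 matches, both inside the promoter printed above, and the summit at Epcam held 1. The places with RAD21 in 16 of 16 lists differed. In the 72 h list, the summits upstream of Twist1, upstream of Snai1 and downstream of Esrp1 at such places held no match. The summits of the Snai2 upstream region and the Cdh1 intronic region, both also bound by RAD21 in 16 of 16 lists, held 2 matches each. The share of all summits with 2 matches was not counted. These 2 are shown with the matches in capitals, from the 72 h list, on the plus strand of mm10 (GRCm38.p6).
Snai2 upstream, chr16:14701457-14701657, fold enrichment 9.29: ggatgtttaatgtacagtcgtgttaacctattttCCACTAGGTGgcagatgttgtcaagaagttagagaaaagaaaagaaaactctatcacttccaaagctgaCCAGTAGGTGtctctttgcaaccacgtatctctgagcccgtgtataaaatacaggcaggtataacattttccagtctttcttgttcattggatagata
Cdh1 intron, chr8:106647494-106647694, fold enrichment 9.19: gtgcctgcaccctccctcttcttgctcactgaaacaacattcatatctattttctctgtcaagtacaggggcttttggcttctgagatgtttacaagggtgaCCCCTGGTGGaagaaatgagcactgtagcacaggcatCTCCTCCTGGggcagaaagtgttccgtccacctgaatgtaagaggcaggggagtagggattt
The fold enrichment is the fragment pileup over the local background of the same list.

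CDX2 regions lay within the window of Zeb2 and of no other gene of the 10. A region in a Zeb2 intron (chr2:45037606-45037876), 14.8 kb from the nearest start, was called in all 3 lists, at a fold enrichment of 5.68, 6.51 and 3.88 at 72, 96 and 120 h. The list of 72 h held 147 regions only, of which 82.3% overlapped the list of 96 h by at least 1 base and 69.4% that of 120 h. A second region lay at a Zeb2 promoter (chr2:45111091-45111296) at 96 h, with 4.92. Promoters with CDX2 in any list made 2.45% of all genes. The share of all gene windows with CDX2 was not counted, so that 1 window among the 10 is a description only. Zeb2 has 17 starts, and its promoter call was lost at the 5'-most start alone and with lists of equal length.

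The Zeb2 intron region lay between 2 H3K27ac regions, chr2:45036727-45037596 and chr2:45037890-45038506. Each of the 2 was called in 7 of 7 libraries at 96 h and 1 of 7 at 120 h, and in 6 of 13 wt lists: the first at 72, 84, 96 and 168 h and the second at 48, 72, 84 and 96 h. A NIPBL region (chr2:45037565-45038621) spanned the same place at 6 of 8 stages, all except 120 h and 132 h. The place was chosen because it carried CDX2, so its H3K27ac is a description, with no test. The CDX2 motif TTTATNG, which reads CNATAAA on the other strand, was found in the 201 bases around 12.9%, 41.1% and 49.5% of summits at 72, 96 and 120 h. The summit in the intron held no match in any of the 3 lists and the one at the promoter held 1. Both are shown as called at 96 h, on the plus strand (Zeb2 lies on the minus strand), with the match in capitals.
Zeb2 intron, chr2:45037638-45037838: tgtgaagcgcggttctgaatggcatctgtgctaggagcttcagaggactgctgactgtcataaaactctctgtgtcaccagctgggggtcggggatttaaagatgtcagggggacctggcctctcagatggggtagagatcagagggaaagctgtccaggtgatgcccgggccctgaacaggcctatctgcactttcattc
Zeb2 promoter, chr2:45111075-45111275: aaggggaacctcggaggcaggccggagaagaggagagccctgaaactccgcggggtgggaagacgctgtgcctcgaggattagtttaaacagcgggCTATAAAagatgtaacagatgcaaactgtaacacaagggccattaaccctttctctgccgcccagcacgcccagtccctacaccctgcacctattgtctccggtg
The whole Zeb2 window was covered with H3K27ac by 4.92% to 6.61% (median 6.29%) at 96 h and by 3.18% to 6.28% (median 5.46%) at 120 h, in groups that overlapped. In wt alone they did not overlap (-2.19 points), while the difference was -0.82 points in Del(CBS1) and -0.33 in Del(CBS1-2).

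Other genes of the transition were read from lists of 20 epithelial and 20 mesenchymal genes. Over the stages, H3K27ac fell at 2 of 20 epithelial genes tested, the protease gene Prss8 (15.8% of its window was covered in the first stage and 5.76% in the last) and the tight junction gene Cldn4 (14.5% and 1.76%), and no mesenchymal gene of 18 tested was called, against 6.26% of all genes called lower. With lists of equal length 1 epithelial gene was called. The median rho was -0.74 for the epithelial and 0.17 for the mesenchymal list, against 0.35 for the 10 genes and -0.48 for all genes. Between 96 h and 120 h, 5 epithelial genes of 20 fell and 1 rose, close to the 21% and 6.25% of all genes. Prss8 fell from 11.3% to 6.92%, St14, another membrane protease gene, from 3.47% to 0.804%, the Esrp1 paralogue Esrp2 from 2.56% to 0%, and the junction gene Ocln from 3.74% to 1.94% (adjusted p = 0.00651 each, exact permutation test).

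Of 19 mesenchymal genes tested at these stages 7 rose and 3 fell, against 6.25% and 21% of all genes. Foxc2, a forkhead gene of mesoderm, rose from 8.93% to 16.7%, Twist2, the paralogue of Twist1, from 0.29% to 3.92%, and the ligand gene Tgfb2 from 1.14% to 4.13%, whereas the integrin gene Itga5 fell from 7.33% to 4.08% (adjusted p of 0.00651 to 0.0227, exact permutation test). The median difference was -0.74 points for the epithelial list and 0.06 points for the mesenchymal list, against -0.63 for the 10 genes and -0.34 for all genes. With lists of equal length 2 epithelial and 4 mesenchymal genes were called. In NIPBL, Cdh11, Foxc2, Twist2 and Tcf4 were among 5 mesenchymal genes of 15 called higher at later stages, each with 0% covered at 72 h and 1.70%, 14.6%, 2.63% and 2.55% at 168 h, and none of 17 epithelial genes was called, against 6.22% of all genes called higher. The 72 h list held 6652 regions only, and with lists of equal length none of these genes was called. The median rho was 0.71 for the mesenchymal and 0.52 for the epithelial list, against 0.72 for all genes. No gene of either list was called for PolII or RAD21, where 1 and 0 epithelial and 3 and 3 mesenchymal genes had an unadjusted p under 0.05.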

How the data were processed

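Stembryos of wt, Del(CBS1) and Del(CBS1-2) mES cells were profiled by ChIP–seq (H3K27ac, H3K27me3, CDX2, pSer2PolII) or ChIPmentation (CTCF, RAD21, NIPBL, PolII). Per the methods of the study, the authors trimmed reads with cutadapt 1.16, mapped them to mm10 with Bowtie2 2.3.4.1, kept proper pairs of high mapping quality with SAMtools 1.8 and called regions with MACS2 2.1.1.20160309, without input, in 1 list per library. The reads of 3 pSer2PolII libraries of 144 h were merged into 1 list. The deposited lists give each summit's fold enrichment over the local background, its −log10 p and −log10 q values and a score, which is 10 times the −log10 q cut to a whole number by the caller. A called region therefore depends on depth and on how well the immunoprecipitation worked, and lists were not scaled to each other by the authors.

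Of 80 lists from 82 samples, 61 wt lists and 8 H3K27ac lists of the deletion lines were used, and 11 lists of mutant lines for CTCF, H3K27me3 and RAD21 were not used here. No column held values of other samples (0). Gene models were GENCODE vM21, and the regions of a list were merged. A gene was tested in a comparison with regions in at least 3 of its lists, and called at an adjusted p under 0.05. Fragment pileups were recovered from fold enrichment and −log10 p to a tolerance of 0.001. No lists were duplicates: 25 pairs shared at most 0.0817% of their regions. The analysis used Python 3.11.15, NumPy 2.4.6, SciPy 1.17.1 and matplotlib 3.10.9, and was tested on simulated data. Alternatives were 5 kb flanks, promoters alone, lists of equal length, a −log10 q of at least 5, regions in at least 1 list, Pearson's r, each stage, library or genotype left out and pairing by replicate number. The 10 genes, the pathway lists and the tests were chosen with earlier results of these data known. Named are all 10 genes, at most 4 called genes per pathway list and comparison in order of effect, and up to 3 regions per gene and assay called in most lists, or those with CDX2. Other regions are said to have been singled out.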

Additional observations from a re-analysis of the deposited data

Results flagged for a closer look

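H3K27ac along Cdh2 differed between 96 h and 120 h in opposite directions in wt and in both deletion lines. The mean covered percent at 120 h minus that at 96 h was -0.6461 points in wt, where it was lower in all 3 libraries matched by number, 0.1065 points in Del(CBS1) and 0.9194 points in Del(CBS1-2), where it was higher in both. The Del(CBS1-2) libraries carry a cell line tag in the labels, and those of wt and Del(CBS1) a cell type tag. The difference between the genotypes was not tested, and the libraries were matched by replicate number alone. In 20 groups of libraries none stood apart from the others by Dixon's criterion.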

How the results depend on the processing

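A single library stands for most stages, and leaving out a stage raises the smallest p that a trend can reach from 5.51e-06 to 4.96e-05 with 9 stages and from 4.96e-05 to 0.000397 with 8. Lists differ in depth and length, so that absence of a region is not absence of a mark. Of all genes, 1040 were called lower and 27 higher in the H3K27ac trend, against totals of 648 with 5 kb flanks, 0 with promoters alone, 28 with lists of equal length, 50 with a −log10 q of at least 5, 2468 by Pearson's r and 0 to 2410 when a stage was left out. In the NIPBL trend 923 were called, against 1871 with promoters alone, 0 with lists of equal length, 3385 by Pearson's r, 0 without the 72 h and 84 h lists and 0 to 9489 when a stage was left out. The PolII count was 0 throughout, and the RAD21 count was 0 except without 168 h (0 to 4850). Between 96 h and 120 h 3509 genes were called lower and 1042 higher, against totals of 806 with promoters alone, 2368 with lists of equal length, 2868 with a −log10 q of at least 5, 0 without wt, 0 without Del(CBS1), 2790 without Del(CBS1-2), 0 with wt alone, where the smallest p of 3 against 3 is 0.1, and 3721 to 4671 when a library was left out. Epcam, Esrp1 and Snai1 kept their calls without any 1 library.

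With the replicate block 0 genes were called, since no p under 0.0156 is possible with 7 pairs. Only 3 of 7 pairs of same-numbered libraries deviated together by over 0.1 (-0.00853 to 0.396), and the numbers were therefore not taken to pair the libraries, although in wt every library correlated best with its own number.

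The sign turned for 50 values of single genes, none of them past the threshold before or after. For trends these were Snai1 H3K27ac with promoters alone (-0.2772), Zeb2 PolII with a −log10 q of at least 5 (-0.119), Twist1 PolII by Pearson's r (-0.2922) and Zeb2 NIPBL with equal length (-0.9027). Without the 72 h and 84 h lists, NIPBL of Epcam (-0.02857), Esrp1 (-0.05798) and Snai1 (-0.08571) turned. In RAD21, Esrp1 turned with 5 kb flanks (-0.2857) and promoters alone (-0.491), Cdh1 with promoters alone (0.4791), Zeb2 with equal length (-0.2143) and a −log10 q of at least 5 (-0.2619), Twist1 with the latter (-0.02381) and Snai1 within the cell type tag (-0.03571). With a stage left out, the range was -0.2857 to 0.381 for Twist1 H3K27ac, -0.2857 to 0.25 for Snai1 PolII, -0.1429 to 0.6071 for Snai2 and for Twist1 PolII, -0.03571 to 0.7143 for Zeb2 PolII, -0.1429 to 0.3571 for Epcam NIPBL, -0.09009 to 0.4144 for Esrp1 NIPBL, -0.1982 to 0.3929 for Vim NIPBL and -0.1429 to 0.6071 for Snai1 RAD21. Between 96 h and 120 h, promoters alone turned Cdh1 (-18.25 points) and Snai2 (2.956). Cdh2 turned with equal length (-0.1488), a −log10 q of at least 5 (-0.2666), without Del(CBS1) (-0.01989), without Del(CBS1-2) (-0.3451) and with wt alone (-0.6461), and ranged from -0.1781 to 0.2324 when a library was left out. Zeb1 turned with wt alone (-0.1997). The cause of these changes was not tested.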
